A study of Mus musculus with 6 samples.

Results

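The insulin-like growth factor (IGF) axis was followed through 8 genes: the ligand gene Igf1, the receptor genes Igf1r, Igf2r and Insr, the receptor substrate genes Irs1 and Irs2, and the binding protein genes Igfbp4 and Igfbp7. The genes were taken by symbol from a table of 55401 mouse genes, in which each matched 1 Ensembl identifier. The RNA came from BV2 cells, a line of immortalised mouse microglia, the resident macrophages of the brain. A first group of 3 libraries was made from cells given lipopolysaccharide (LPS), the cell wall component of Gram-negative bacteria that Tlr4 senses, and a second group of 3 from cells given Vehicle. All 6 share the same line. The labels give no dose, no time and no composition of the vehicle. They also do not say whether each library had a culture of its own, so any p-value here rests on a spread between libraries that may be technical. The 8 genes were chosen with the LPS against Vehicle results of these libraries known, so their values in that contrast are a description and carry no p-value.

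IGF-1 is a peptide related to insulin that promotes survival, growth and protein synthesis. It binds the tyrosine kinase receptor encoded by Igf1r, and at lower affinity the insulin receptor encoded by Insr. Both receptors phosphorylate the docking proteins IRS-1 and IRS-2, which recruit PI3-kinase and so switch on AKT and mTOR and hold FOXO transcription factors out of the nucleus. Binding proteins hold IGF outside the cell and proteases free it. In the brain, microglia are among the cells that make IGF-1, which acts on neurons and on the precursors of myelin-forming cells.

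With LPS the ligand and its binding protein were low, the IGF-1 receptor was near its Vehicle level, and the insulin receptor and both substrates were high. Igf1 had 17.0 ± 2.60 CPM (counts for the gene relative to the library's TMM-scaled total, the unit of all levels here unless given per kb) in LPS libraries and 64.2 ± 4.6 CPM in Vehicle libraries (SD, n = 3 each). Igfbp4 had 5.81 ± 0.84 CPM in LPS libraries and 29.1 ± 8.05 CPM in Vehicle libraries (SD, n = 3 each). Igf1r had 58.5 ± 4.59 CPM in LPS libraries and 61.8 ± 4.94 CPM in Vehicle libraries (SD, n = 3 each). Insr had 50.8 ± 24.4 CPM in LPS libraries and 21.8 ± 4.30 CPM in Vehicle libraries (SD, n = 3 each). In bulk RNA, fewer cells with a transcript and less of it per cell cannot be told apart.

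Each LPS library held 49016002 to 55917868 estimated counts in all and each Vehicle library 45969690 to 59023474. Of 12 microglia and macrophage marker genes, 8 had at least 10 CPM in every library, among them Cd68, Csf1r, Spi1 and Itgam, while the microglial genes P2ry12 and Tmem119 stayed under 3 CPM. The 12 summed to 1700 to 2060 CPM in LPS libraries and 2220 to 2440 CPM in Vehicle libraries, with 1 called higher and 4 lower, and Itgam was at 42.9 CPM in LPS 1 but at 156 to 249 CPM in the other libraries. Transcripts of other brain cells were present at trace level. The 7 neuron markers summed to 1.9 to 13.4 CPM in LPS libraries and 5.37 to 12.7 CPM in Vehicle libraries, with LPS 1 the lowest, and the sums of the astrocyte, oligodendrocyte and fibroblast or endothelial markers stayed under 9 CPM. None of these markers was at 0 in all libraries, and their part in the results below was not tested.

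Igf1 (ENSMUSG00000020053) was at 15.46, 15.63 and 20.05 CPM in LPS 1, 2 and 3, against 58.96, 67.55 and 66.12 CPM in Vehicle 1, 2 and 3. Every LPS library lay below every Vehicle library, and the gap between the groups was wider than the range within either. The log2 fold change from the fit over all genes was -1.91 ± 0.14 (± is the SE for log2 fold changes throughout), and 1.86% of the 16371 tested genes had a lower one. Leaving out any 1 library gave -2.05 to -1.85. The antisense gene Igf1os, which overlaps Igf1, had 0 to 16 estimated counts in LPS libraries and 8 to 27 in Vehicle libraries, against 772 to 977 and 3131 to 3565 for Igf1. Whether the library kit keeps strand information is not stated, and any part of antisense reads in the counts of Igf1 was not tested.

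Igfbp4 (ENSMUSG00000017493) encodes a secreted protein that binds IGF and is known mainly as an inhibitor of its action. It had 6.61, 5.89 and 4.92 CPM in LPS 1, 2 and 3, against 20.2, 31.3 and 35.9 CPM in Vehicle 1, 2 and 3. The groups did not overlap, and the Vehicle libraries spread more widely (coefficient of variation 27.7%) than the LPS libraries (14.5%). Vehicle 1 was the low one of its group. The log2 fold change was -2.32 ± 0.25, and 1.03% of the tested genes had a lower one. Leaving out any 1 library gave -2.53 to -2.15. Per kb of longest transcript, Igf1 stood to Igfbp4 at 1.27, 1.44 and 2.21 in LPS 1, 2 and 3 and at 1.58, 1.17 and 1.00 in Vehicle 1, 2 and 3, so the ratio of ligand to binding protein overlapped between the groups.

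Igfbp7 (ENSMUSG00000036256), an IGFBP-related protein of low affinity for IGF, was close to undetected. It had 0, 0 and 14 estimated counts in LPS 1, 2 and 3 and 0, 0 and 4 in Vehicle 1, 2 and 3. The low values of these files pile up in steps of 3.87 counts at the median, whose origin was not tested, and 3 such steps (11.6 counts) were taken as the floor, which covers counting error only. LPS 3 lay just above that floor and the other libraries below it, so no fold change is given. On the other strand it overlaps the RNA polymerase gene Polr2b, which had 5007 to 5744 estimated counts in LPS libraries and 6856 to 8195 in Vehicle libraries. Igfbp7 was the 1 gene of the 8 that did not pass the filter on low counts.

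**Figure D1:**
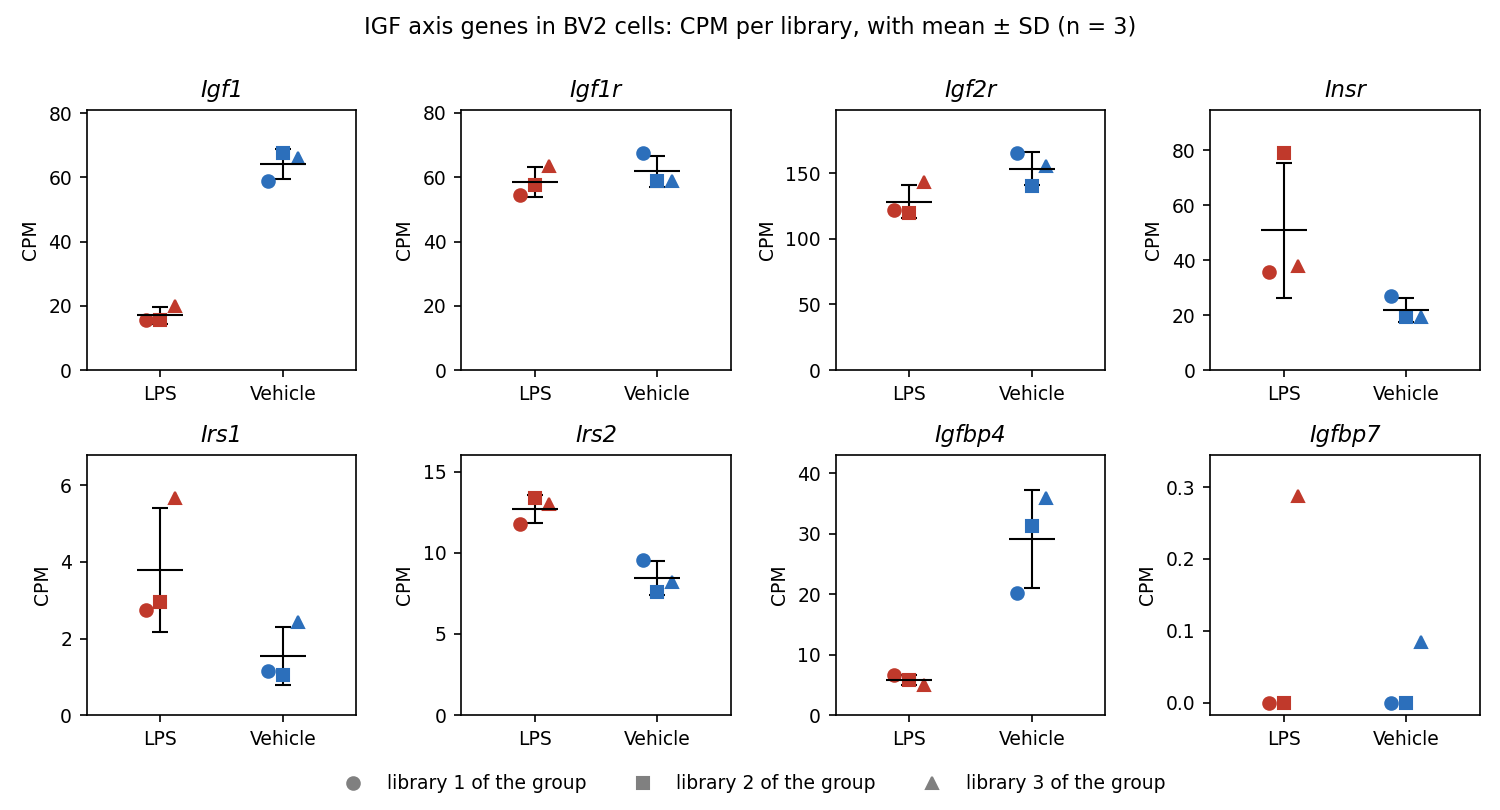
CPM of the 8 IGF axis genes, with a panel for each gene and its own vertical axis starting at or just below 0; symbols are the 6 libraries (red LPS, blue Vehicle), and the black bars are the mean and SD of 3 libraries (omitted for Igfbp7). The LPS libraries of Igf1 (15.46 to 20.05 CPM) and Igfbp4 (4.92 to 6.61 CPM) lie below all Vehicle libraries, those of Igf1r and Igf2r overlap with Vehicle, and for Insr LPS 2 stands at 79.0 CPM, apart from the other libraries.

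The upstream sequences of the 2 genes that were low with LPS are shown because they differ in base composition. The 250 bases before each annotated start come from RefSeq (GRCm38.p6), for Igf1 chr10:87860861-87861110 on the plus strand and for Igfbp4 chr11:99040994-99041243 on the plus strand. They are written 5′ to 3′ with CpG dinucleotides in capitals.
Igf1: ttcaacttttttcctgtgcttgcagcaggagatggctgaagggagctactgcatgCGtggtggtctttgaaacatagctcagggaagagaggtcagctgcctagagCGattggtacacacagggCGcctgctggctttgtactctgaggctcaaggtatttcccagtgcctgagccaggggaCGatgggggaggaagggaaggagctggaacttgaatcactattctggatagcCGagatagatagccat
Igfbp4: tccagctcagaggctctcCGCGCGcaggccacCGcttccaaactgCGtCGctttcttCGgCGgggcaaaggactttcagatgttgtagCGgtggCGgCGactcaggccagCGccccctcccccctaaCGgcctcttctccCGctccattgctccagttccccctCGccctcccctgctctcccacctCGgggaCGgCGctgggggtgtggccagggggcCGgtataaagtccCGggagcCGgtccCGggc

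The Igf1 sequence held 5 CpGs and 52.8% G and C, near the median of 6 CpGs over 32851 RefSeq promoters. The Igfbp4 sequence held 22 CpGs and 69.2% G and C, more CpGs than 85.2% of promoters. The promoter table held 7 of the 8 genes, and Igf1 was the only one of those with fewer than 22 CpGs; Igf1r had the most, with 42. Igfbp4 was also the only one of the 7 with the TATA box letters TATAAA on its own strand, which 7.59% of all promoters held. On either strand, none of the 7 held the FOXO letters GTAAACA or the STAT letters TTCNNNGAA, which 3.17% and 7.02% of promoters held. A match or its absence in 250 bases describes these letters only, and Igf1 is known to be transcribed from more than 1 start site.

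Igf1r (ENSMUSG00000005533), the receptor through which IGF-1 signals, had 54.6, 57.5 and 63.6 CPM in LPS 1, 2 and 3, against 67.5, 58.9 and 59.0 CPM in Vehicle 1, 2 and 3. The groups overlapped, and the log2 fold change of -0.08 ± 0.11 was smaller than its error. Over the alternatives of processing it ran from -0.17 to -0.01. Igf1r therefore showed a spread of about 8% within each group (7.83% with LPS and 7.99% with Vehicle) and a difference of means within that spread.

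Igf2r (ENSMUSG00000023830) encodes the cation-independent mannose 6-phosphate receptor, which carries lysosomal enzymes and takes up IGF-2 for degradation without signalling as a kinase. Its levels were 122, 120 and 143 CPM in LPS 1, 2 and 3 and 165, 140 and 155 CPM in Vehicle 1, 2 and 3. LPS 3 lay above Vehicle 2, so the groups overlapped, and the log2 fold change was -0.26 ± 0.11. Without LPS 3 it was -0.35. The noncoding RNA gene Airn, which runs antisense through Igf2r, had 124 to 210 estimated counts in LPS libraries and 249 to 278 in Vehicle libraries, against 6096 to 6962 and 6817 to 9988 for Igf2r. Airn, at a log2 fold change of -0.73 ± 0.27, was not called (edgeR adjusted p = 0.0843), but it was without LPS 3 (edgeR adjusted p = 0.0188; 0.0188 to 0.229 over all alternatives).

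Insr (ENSMUSG00000005534) encodes the insulin receptor, which also forms hybrids with the IGF-1 receptor. It was at 35.6, 79.0 and 37.9 CPM in LPS 1, 2 and 3 and at 26.8, 19.4 and 19.3 CPM in Vehicle 1, 2 and 3. All LPS libraries lay above all Vehicle libraries, but LPS 2 stood at more than the sum of the other LPS libraries, and the coefficient of variation was 48.1% with LPS and 19.7% with Vehicle. The log2 fold change was 1.21 ± 0.35 with all libraries. With 1 library left out, the lowest value was 0.74 without LPS 2 and the highest was 1.41 without LPS 1. Genes that overlap Insr on the other strand had at most 8 estimated counts in any library.

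The balance of the 2 receptor kinase genes differed between groups. Per kb of longest transcript, Igf1r stood to Insr at 1.26, 0.597 and 1.38 in LPS 1, 2 and 3, against 2.07, 2.49 and 2.51 in Vehicle 1, 2 and 3. The ratio was lower in each LPS library than in any Vehicle library, and under 1 in LPS 2 only. Since Igf1r was nearly level, this ratio follows Insr. Igf1 stood to Igf1r per kb at 0.458, 0.440 and 0.510 in LPS 1, 2 and 3, against 1.41, 1.85 and 1.81 in Vehicle 1, 2 and 3.

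Irs1 (ENSMUSG00000055980) encodes a docking protein of both receptors and was the scarcest of the 7 genes that passed the filter. It had 2.74, 2.96 and 5.66 CPM in LPS 1, 2 and 3 and 1.16, 1.05 and 2.43 CPM in Vehicle 1, 2 and 3. The groups did not overlap, but the gap between LPS 1 and Vehicle 3 was small beside the spread within each group, and replicate 3 was the high one in both. The log2 fold change was 1.31 ± 0.43, and 0.91 to 1.76 with 1 library left out. A predicted gene on the other strand, Gm9747, lies within Irs1 and had 69 to 111 estimated counts in LPS libraries and 39 to 71 in Vehicle libraries, against 137 to 276 and 51 to 115 for Irs1. With counts this close and no stated strand, the level of Irs1 is uncertain.

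Irs2 (ENSMUSG00000038894), the docking protein gene that FOXO factors are known to activate in liver, was at 11.8, 13.4 and 13.0 CPM in LPS 1, 2 and 3 and at 9.57, 7.56 and 8.22 CPM in Vehicle 1, 2 and 3. The groups did not overlap, and Vehicle 1 came closest to the LPS libraries. The log2 fold change was 0.58 ± 0.16, that is 1.5-fold, and 0.51 to 0.69 with 1 library left out. Per kb, Irs2 stood above Irs1 in all 6 libraries, by 3.32 to 6.54 times with LPS and by 4.89 to 12 times with Vehicle.

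The upstream sequences of Irs1 and Irs2 are shown because they share a pair of motifs. Each window holds the E-box CACGTG with 20 bases on either side, 5′ to 3′ on the strand of the gene, from RefSeq (GRCm38.p6). Capitals mark the E-box and the letters TGTTTTG. Read on the other strand, those letters are CAAAACA, the core of the insulin response element known from insulin-repressed genes. The windows are chr1:82291529-82291574 on the minus strand for Irs1, chr8:11008948-11008993 on the minus strand for Irs2 and chrX:141725346-141725391 on the minus strand for Irs4, another gene of the family.
Irs1: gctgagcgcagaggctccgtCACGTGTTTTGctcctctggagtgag
Irs2: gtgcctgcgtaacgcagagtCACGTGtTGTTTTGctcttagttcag
Irs4: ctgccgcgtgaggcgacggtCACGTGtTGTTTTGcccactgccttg

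In Irs1 the 2 motifs overlap, and in Irs2 and Irs4 a single base parts them. The E-box alone was found in 6.02% of promoters and the insulin response element core in 5.56%. Both starting within 10 bases of each other were found in 7 of 32851 promoters (0.0213%), those of Irs1, Irs2, Irs4, Klf11, Pcbp1, Pyroxd1 and 1700019P21Rik. These letters were picked after the Irs1 and Irs2 sequences had been read, so the count describes how rare the pair is and tests nothing. Irs4 was at 0 in every library, so the pair was present in genes with and without counts. Igf2r held 2 E-boxes in its 250 bases but not the second motif.
Igf2r, from chr17:12769729-12769774 on the minus strand: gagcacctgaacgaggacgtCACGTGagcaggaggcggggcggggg

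Summed over the 8 genes, the level per kb of longest transcript was 28.4, 33.1 and 32.7 CPM per kb in LPS 1, 2 and 3, against 42.6, 42.0 and 45.1 CPM per kb in Vehicle 1, 2 and 3. Igf2r was the largest part in every library. With LPS the order of mean levels was Igf2r (14.4 CPM per kb), Insr (5.43), Igf1r (5.13), Igf1 (2.42), Irs2 (2.01), Igfbp4 (1.52) and Irs1 (0.414). With Vehicle the order of mean levels was Igf2r (17.3 CPM per kb), Igf1 (9.11), Igfbp4 (7.60), Igf1r (5.42), Insr (2.34), Irs2 (1.34) and Irs1 (0.169). The libraries of neighbours in the order overlapped for Insr and Igf1r with LPS, and for Igf1 and Igfbp4 and for Igfbp4 and Igf1r with Vehicle. Igf1 made up 7.70% of the sum with LPS and 21.1% with Vehicle, and Igfbp4 4.88% and 17.5%, as means of 3 libraries.

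**Figure D2:**
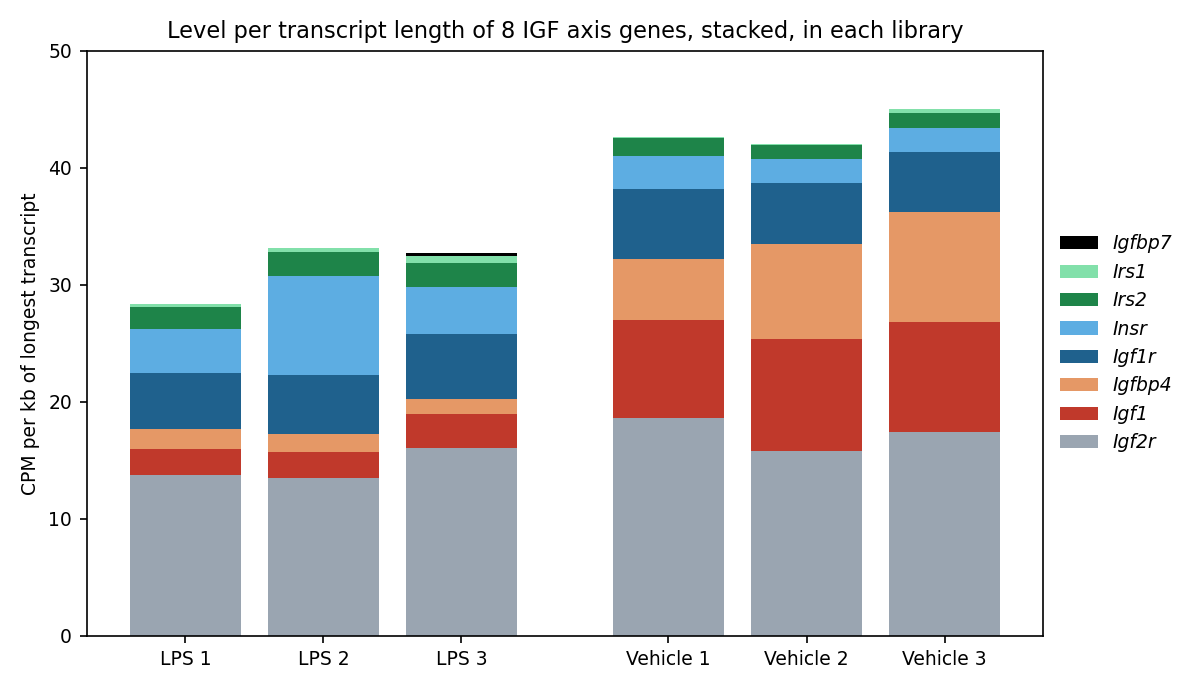
Levels of the 8 genes in CPM per kb of longest annotated transcript, stacked in a bar for each library (LPS 1 to 3 on the left, Vehicle 1 to 3 on the right). The red and orange parts (Igf1 and Igfbp4) are thin in the LPS bars and thick in the Vehicle bars, the grey part (Igf2r) is the largest in all 6, and the light blue part (Insr) is thickest in LPS 2.

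Among all 16371 tested genes, 3864 (23.6%) were called in edgeR's quasi-likelihood fit (Benjamini-Hochberg adjusted p under 0.05), 12.7% higher and 10.9% lower with LPS, and in 40.8% the libraries of the groups did not overlap. The calls were 53.9% higher ones, or 42.2% with libraries scaled by total counts only. By the same threshold 4 of the 7 tested IGF axis genes lay past it, Igf1 and Igfbp4 lower and Insr and Irs2 higher, and 5 of 7 did not overlap between groups, but since the genes were chosen on this contrast nothing is read from these counts. Insr fell short of the threshold without LPS 3, without any 1 Vehicle library, with upper-quartile scaling and with no filter, and Irs2 without LPS 1, LPS 2, Vehicle 2 or Vehicle 3 and with total counts only. Irs1 passed it without Vehicle 3 and by DESeq2's Wald test, and Igf2r without LPS 3. Such crossings of the threshold describe the chosen genes and test nothing. Over all alternatives the log2 fold change ran from -2.05 to -1.85 for Igf1 and from -2.53 to -2.15 for Igfbp4. The median log2 fold change was -0.08 over the 7 genes and -0.02 over all tested genes.

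The 3 genes whose profile over the 6 libraries was most like that of Igf1 were Ankle1, Neil3 and Rasgrp3, with root-mean-square distances of 0.1, 0.156 and 0.16 on centred log2 CPM, among 9794 genes of at least 5 CPM. For Igfbp4 the nearest were Cytip, Efr3b and Abca9, at 0.347, 0.348 and 0.355. None of these lay as close to Igfbp4 as the 3 above to Igf1. For Igf1r, which hardly varied, Brpf1, Rbm15b and Ppip5k1 lay at 0.0288 to 0.0366. With 6 libraries in 2 groups such likeness reflects mostly the difference between groups.

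The rest of the pathway was read from 100 genes chosen by role from textbook knowledge. That choice was made with earlier results of these data known, so the shares below describe the list. Of the 81 that could be tested 15 rose (18.5%, against 12.7% of all tested genes) and 13 fell (16%, against 10.9%) with LPS by edgeR's quasi-likelihood test, with a median log2 fold change of 0.09. Without LPS 2 or without Vehicle 2 the number that fell was 9. The other ligand genes Igf2, Ins1 and Ins2 were at 0 in all 6 libraries, which allows at most 11.6 counts per library by the floor above. Igf1 was thus the only gene of an IGF or insulin ligand with counts in these libraries.

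Among the other binding protein genes, 0 of 3 tested members were called by edgeR or DESeq2, and 0 had an unadjusted p under 0.05. Of all tested genes edgeR called 23.6%. The 3 genes reached at most 1.39 CPM (Igfbp2), 0.431 CPM (Igfbp5) and 1.3 CPM (Igfbp6), so the lack of calls says little about them. Igfbp6 had 1.01 ± 0.36 CPM in LPS libraries and 0.67 ± 0.11 CPM in Vehicle libraries (SD, n = 3 each). Igfbp2 had 0, 0 and 26 estimated counts in LPS 1, 2 and 3 and 84, 14 and 21 in Vehicle 1, 2 and 3, and Igfbp5 had at most 21. Igfbp3, the main carrier of IGF in blood, had 1 estimated count in LPS 3 and 0 elsewhere, and Igfbp1 and Igfbpl1 were at 0. Igfbp4 was thus the binding protein gene with the highest level per kb in each of the 6 libraries.

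Of 3 tested genes of the proteases that free IGF from its binding proteins, and of their inhibitors, 2 rose and 0 fell (12.7% and 10.9% of all tested genes). Without LPS 2, Vehicle 2 or Vehicle 3 only 1 rose. Pappa2, whose product cleaves IGFBP-3 and IGFBP-5, had 194, 291 and 239 estimated counts in LPS 1, 2 and 3 and 7, 14 and 18 in Vehicle 1, 2 and 3. It rose by 4.24 ± 0.40 on the log2 scale (edgeR adjusted p = 0.000186). Its Vehicle counts lay at or near the floor, so the size of this change is uncertain. Pappa, whose product cleaves IGFBP-4, was at 0 in every library. Htra1, a secreted serine protease, rose with 0.62 ± 0.14 (edgeR adjusted p = 0.0128), a call that did not hold without LPS 2, Vehicle 2 or Vehicle 3 (adjusted p up to 0.058). Stc2, an inhibitor of both pappalysins, had -0.24 ± 0.12 (edgeR adjusted p = 0.196).

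Growth hormone drives Igf1 in liver through JAK2 and STAT5. Its receptor gene Ghr had 11 to 27 estimated counts in LPS libraries and 8 to 44 in Vehicle libraries, at or near the floor. Jak2 rose with a log2 fold change of 0.98 ± 0.14 and Socs2, a feedback inhibitor of growth hormone signalling, with 1.59 ± 0.17 (edgeR adjusted p = 0.00144 and 0.00037). Stat5a and Stat5b had 0.20 and 0.18 and did not pass the test.

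Among 10 tested brakes on insulin and IGF signalling, 3 rose and 2 fell, against 12.7% and 10.9% of all tested genes, and without LPS 1, LPS 2 or Vehicle 2 only 1 fell. Socs3 and Socs1, whose products can direct IRS proteins to degradation, had log2 fold changes of 3.40 ± 0.13 and 2.0 ± 0.37, and Trib3, a pseudokinase that binds AKT, had 1.66 ± 0.12 (largest edgeR adjusted p = 0.00592). Phlpp1, a phosphatase of AKT, fell with -0.67 ± 0.11 (edgeR adjusted p = 0.00333).

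Between the receptors and mTOR most genes were not called, as among all tested genes, of which 12.7% were called higher and 10.9% lower. Of 10 other receptor and adaptor genes tested 1 fell, Shc1, with -0.36 ± 0.09, which lost the call without LPS 2 or any 1 Vehicle library (edgeR adjusted p = 0.0208, and up to 0.0786). Of 10 genes of PI3-kinase and PDK1, Pik3ap1, an adaptor of PI3-kinase in B cells and macrophages, rose with 0.42 ± 0.08 (edgeR adjusted p = 0.00558). Pik3r1, the regulatory subunit that binds IRS proteins, fell with -0.37 ± 0.11 (edgeR adjusted p = 0.0473), a call that did not hold without any library but LPS 3 (adjusted p up to 0.164) or with no filter (adjusted p = 0.0682). Of 9 genes of AKT and its substrates Akt1 fell, with 374 ± 17.3 CPM in LPS libraries and 524 ± 19.1 CPM in Vehicle libraries (SD, n = 3 each), which is -0.49 ± 0.08 on the log2 scale (edgeR adjusted p = 0.00316).

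Of 14 genes of the TSC and mTOR complexes 5 fell and 1 rose (10.9% and 12.7% of all tested genes). Without LPS 2, Vehicle 1 or Vehicle 2 only 4 fell. Deptor, an inhibitor of mTOR, had -1.24 ± 0.14, the S6 kinase gene Rps6kb1 -0.74 ± 0.14 and the mTOR subunit gene Mlst8 -0.65 ± 0.13 (largest edgeR adjusted p = 0.00703). Eif4ebp1, a repressor of translation that mTOR inactivates, rose with 0.79 ± 0.09 (edgeR adjusted p = 0.00068). The related gene Eif4ebp2 went the other way, with -0.44 ± 0.09 (edgeR adjusted p = 0.00855). Rheb also fell, with -0.50 ± 0.13 (edgeR adjusted p = 0.0254). Mtor itself had 0.02 ± 0.09 and did not pass the test.

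FOXO factors are the transcription factors that IGF and insulin signalling restrains. Foxo3 rose with 0.33 ± 0.08 (edgeR adjusted p = 0.0233), a call that did not hold without LPS 1 or any 1 Vehicle library (adjusted p up to 0.09) or with total counts only (adjusted p = 0.0801), and Foxo1 had 0.32 ± 0.11 (edgeR adjusted p = 0.0786). Of 12 tested genes known as FOXO targets 4 rose and 2 fell, against 12.7% and 10.9% of all tested genes. The number that fell was 3 with upper-quartile scaling, the stricter filter or values divided by their step and 4 with total counts only or DESeq2's Wald test, equal to the 4 that rose there. Gadd45a, Bbc3 and Sod2 rose with 2.18 ± 0.15, 1.31 ± 0.20 and 1.24 ± 0.09, and Bcl6 and Sesn1 fell with -1.56 ± 0.15 and -0.64 ± 0.12 (largest edgeR adjusted p = 0.00605). Several of these genes are also known targets of p53 or NF-kB. Of the genes for proteins that bind Igf2 mRNA, Igf2bp3 fell with -0.41 ± 0.08 (edgeR adjusted p = 0.00861), and Igf2bp2 rose with 0.64 ± 0.18 (edgeR adjusted p = 0.0396), a call that did not hold without LPS 2 or any 1 Vehicle library (adjusted p up to 0.119), with total counts only (adjusted p = 0.0725) or with no filter (adjusted p = 0.06).

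**Figure D3:**
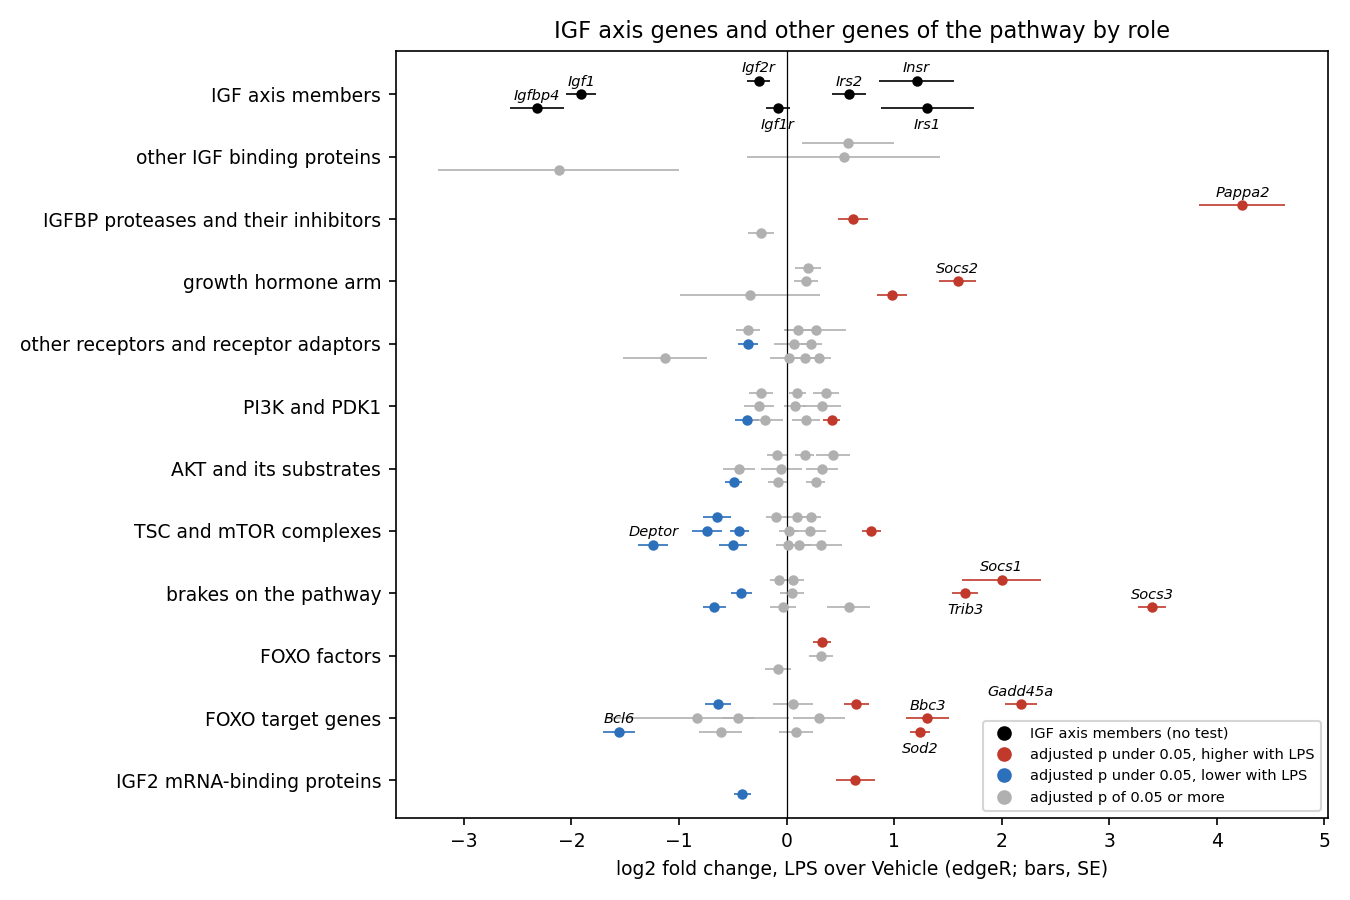
Log2 fold change, LPS over Vehicle, of the IGF axis genes (black, no test) and of 81 other genes of the pathway by role (red higher, blue lower at an adjusted p under 0.05 by edgeR, grey otherwise); bars are SE. Igfbp4 and Igf1 lie at -2.32 and -1.91, to the left of all called genes of the other lists, while Pappa2 and Socs3 lie farthest to the right at 4.24 and 3.40. The Vehicle counts of Pappa2 lay at or near the floor.

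Igf1 was also set beside 28 growth factor genes outside the IGF family. In level per kb it was the 6th of 32 ligand genes in all Vehicle libraries, between Gdf15 and Hbegf, and the 9th or 10th in the LPS libraries. Of 17 tested ligands outside the family 8 rose (47.1%, against 12.7% of all tested genes) and 0 fell by edgeR, with 0 lower by DESeq2 and 1 lower at an unadjusted p under 0.05. The number that rose was 6 with the stricter filter, with values divided by their step and without LPS 2, Vehicle 1 or Vehicle 3. It was 9 with the replicate block. Among the 8, Gdnf had 4 to 19 estimated counts in Vehicle libraries and Inhba had 0, at or near the floor. Gdf15, a stress-induced cytokine, Hgf, the ligand of Met, and Hbegf, a ligand of the EGF receptor, had log2 fold changes of 2.52 ± 0.38, 1.56 ± 0.36 and 1.5 ± 0.11 (largest edgeR adjusted p = 0.0174). Hgf lost its call without LPS 2, Vehicle 1 or Vehicle 3 (edgeR adjusted p up to 0.0717). Gdf15 was uneven with LPS, at 134, 132 and 52.9 CPM in LPS 1, 2 and 3. Since Igf1 was chosen for its values in this contrast, this is no test that it differs from the other ligands.

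**Figure D4:**
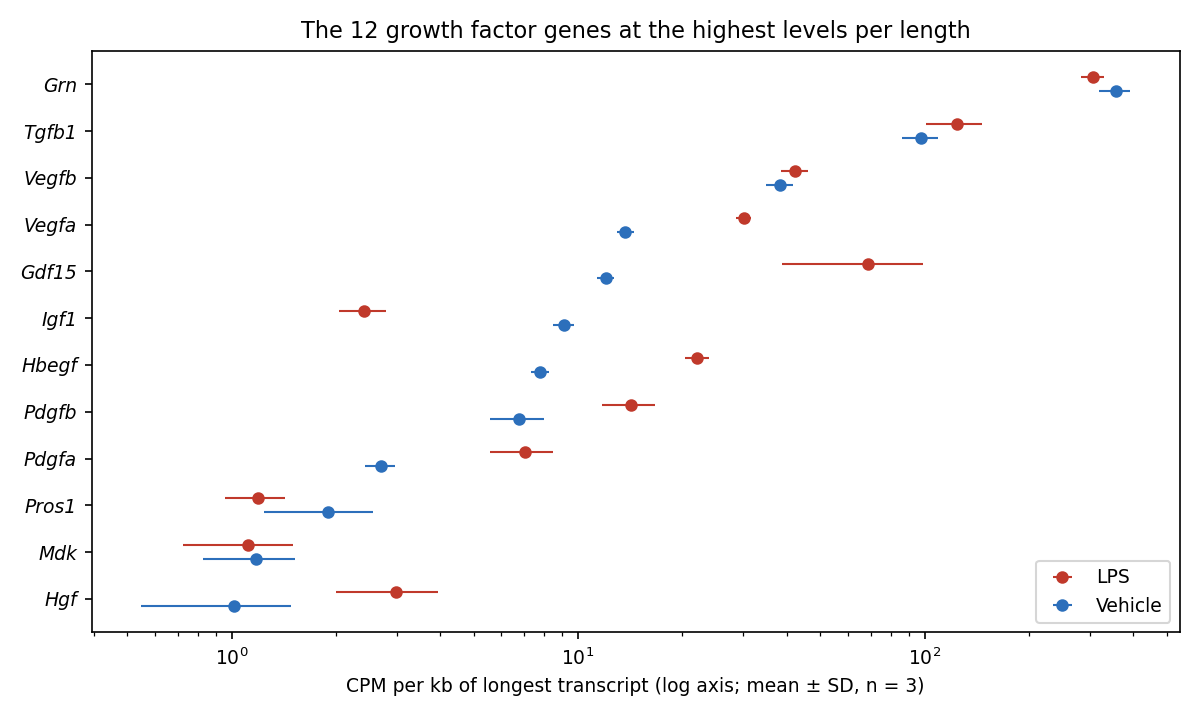
Level of Igf1 and of 11 other growth factor genes in CPM per kb of longest transcript (log axis, mean ± SD of 3 libraries; red LPS, blue Vehicle), from the highest to the lowest Vehicle level. Igf1 is at 2.42 CPM per kb with LPS and 9.11 with Vehicle, while Vegfa, Gdf15, Hbegf, Pdgfb, Pdgfa and Hgf have an LPS point well to the right of the Vehicle point.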

How the data were processed

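Poly(A)-selected RNA of 6 BV2 samples (3 LPS, 3 Vehicle) was sequenced on an Illumina instrument, per the labels' protocols. Estimated counts per gene, all whole numbers and not scaled for depth, were deposited by the authors with a column for each library. DESeq2, StringTie 1.3.1, HISAT2 and Bowtie2 2.2.8 are named, without roles, per the submitters' processing notes. Which genome build and gene models were used is not given in the sources used here. The test used edgeR 4.0.16 (R 4.3.3) on the whole table: filterByExpr (minimum count 10, minimum total 15), TMM scaling, and the robust two-sided quasi-likelihood F-test of version 4, with Benjamini-Hochberg adjustment over 16371 genes. The SE is the log2 fold change over the square root of F, and a prior count of 2 was used for log2 CPM. Lengths are of the longest GENCODE M21 transcript, and promoters are RefSeq's. Alternatives were other scalings and filters, DESeq2 1.42.0, a replicate block, division by the step of the values, and leaving out each library; edgeR's older test was added after seeing the data. The procedure was tested on simulated data. The 8 genes and all lists were chosen with earlier results of these data known. Named genes were the 8, up to 3 called genes per list and direction with the largest changes and at least 1 CPM in a group, 15 set genes, and the 3 nearest profiles; genes printed to complete a count or because they overlap or share a motif were picked after their values or sequences were seen. The values of 1 of the set genes are not reported here.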

Additional observations from a re-analysis of the deposited data

How the results depend on the processing

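In all 105 values of the 7 tested IGF axis genes under 15 alternatives, the log2 fold change kept its sign. Each moved by less than the spread between replicates (1 SD of log2 CPM). Leaving out 1 of 3 libraries can hardly move a group mean by that much, so the leave-one-out values could hardly fail and show no robustness. Insr went from 1.21 to 0.74 without LPS 2 and still counted as unmoved, with an SD of 0.49. The number of IGF axis genes past the threshold and higher was 2, or 1 with upper-quartile scaling, with total counts only, without a filter and with the replicate block (where it was Irs1, not Insr or Irs2), 3 with DESeq2's Wald test, which added Irs1, and 0 to 1 when 1 library was left out (0 without Vehicle 2); the number lower was 2 to 3. Of all tested genes 12.7% were called higher and 10.9% lower in the main fit. Since the IGF axis genes were chosen on this contrast, nothing is read from their numbers. Leaving out 1 library gave 2344 to 4535 called genes in place of 3864, 1291 to 2450 higher and 1053 to 2085 lower. Of the other pathway genes 12 to 17 then rose and 9 to 14 fell. Same-numbered libraries deviated together only weakly (r of 0.045 to 0.073), so the numbers were not taken as pairs, though each library correlated best with its own number. The replicate block gave 3816 called genes, 16 pathway genes higher and 15 lower, with 4 FOXO targets lower in place of 2 and Pik3r1 no longer called (adjusted p = 0.069). Depth limits Igfbp7, Igfbp2, Igfbp5 and Ghr, which lie at or near the floor. The reason why calls were lost was not tested.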
